A study of Mus musculus with 4 samples.

Results

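Fitm1 and 9 further genes of lipid droplet proteins were followed across testes of Taf7l knockout and wild type mice. The members are Fitm1, Fitm2, Plin2, Plin3, Plin4, Plin5, Dgat1, Dgat2, Pnpla2 and Lipe, which makes 10 of the 18193 genes that the platform annotation names on the array. The list was chosen with the differences between these same arrays known, so the differences of the members are given as a description and carry no p-value. Every probe set annotated to a member alone was taken, whatever its values. This gave 15 probe sets, and no member probe set had to be dropped for carrying several gene names. Of the 15, 11 probe sets of 8 members passed the filter on low signals, which kept mouse probe sets with a mean signal of at least 45.8 over the arrays. The other 4 are the single probe set of Plin4, both of Plin5 and a second one of Pnpla2, and their values are given without a standard error.

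Total RNA of whole testis from males of 8 weeks was hybridised to 4 Affymetrix arrays, 2 for wild type and 2 for Taf7l knockout, all on the C57BL/6J strain background. The series design describes the mutant and wild type males as littermates. The labels do not describe the knockout allele, and no treatment other than snap-freezing of the tissue is named. The description of knockout replicate 2 carries the number of replicate 1, so it is not settled that the knockout arrays come from separate animals, and all errors and p-values measure only the spread between these arrays.

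A lipid droplet is a core of neutral lipid, mainly triacylglycerol and sterol ester, inside a phospholipid monolayer that buds from the endoplasmic reticulum. Diacylglycerol acyltransferases make the triacylglycerol, FIT proteins in the endoplasmic reticulum help to package it into droplets, perilipins coat the surface, and a cascade of lipases releases the fatty acids again. In testis, droplets are known from Leydig cells, which store sterol esters for steroid synthesis, and from Sertoli cells, which take up the residual bodies of spermatids. Hormone-sensitive lipase, the product of Lipe, has a long testis form, and male mice without it are sterile. Taf7l encodes a paralogue of the TFIID subunit TAF7 that is abundant in male germ cells and has also been studied in fat cell differentiation.

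The regions directly upstream of the start sites are shown for the member with the highest difference, for its paralogue, for a coat protein gene that was lower in the knockout and for the pair that holds a TATA box, because TFIID binds core promoters. All come from RefSeq with its build GRCm38.p6, and 8 of the 10 members had an entry, with 10 start sites among them. Dgat1 and Dgat2 had none. In the 3 longer sequences, capitals mark matches on either strand to TATAA (the TATA box), to GGGCGG (the GC box) or to CCAAT, and in the 30-base windows they mark TATAA alone. The first line is the plus strand at chr14:55575574-55575673, the 100 bases before the start of Fitm1. The next is the minus strand at chr2:163472630-163472729, the 100 bases before the start of its paralogue Fitm2. The third is the minus strand at chr17:56290512-56290611, before the start of Plin3. The last lines are 30-base windows on the minus strand, from position -45 to position -16, at chr17:56109798-56109827 for Plin4 and at chr17:56117564-56117593 for the upstream start of Plin5.
Fitm1: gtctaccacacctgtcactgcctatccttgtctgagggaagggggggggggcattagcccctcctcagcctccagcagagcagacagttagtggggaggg
Fitm2: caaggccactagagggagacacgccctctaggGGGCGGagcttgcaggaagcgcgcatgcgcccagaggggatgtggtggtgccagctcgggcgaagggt
Plin3: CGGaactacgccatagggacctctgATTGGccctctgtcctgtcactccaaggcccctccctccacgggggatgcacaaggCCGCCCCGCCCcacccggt
Plin4: cctccccagacccTATAAggcttggggatt
Plin5: ggccccacccagacctgcTATAAggacgga

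Fitm1 held none of the 3 motifs within 250 bases, while Fitm2 had 1 GC box at position -68. Plin3 had 3 GC boxes, at positions -103, -19 and -14, so the printed stretch opens with the end of the first, and the other two share a base. TATAA with its first base between -45 and -20 was found in 4.87% of 32851 RefSeq promoters and in 2 members, at -32 in Plin4 and at -27 in Plin5. GGGCGG lay within 250 bases upstream in 32.7% of all promoters and in 5 members. CCAAT lay there in 33.8% of all promoters and in 4 members. G and C made up 60.4% of the 250 bases before Fitm1 and 60.8% of those before Fitm2, against a median of 52.4% over all promoters. Lipe has 2 start sites in the table, the first with 6 GC boxes and the second with none. These matches describe letters in the reference, and the arrays carry no measurement at these sites.

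The targeted gene followed the labels. Wild type signals of Taf7l were 829 and 818, against 80.6 and 72.5 in the knockout, a level 10.8-fold lower there (limma, adjusted p = 0.0033). Where the deleted part lies relative to this probe set is not given in the labels. Over all genes, limma called 312 of 22519 kept probe sets at an adjusted p under 0.05, which is 1.39%, with 100 higher and 212 lower in the knockout. No probe set was called when any of the 4 arrays was left out, and 3084 to 5500 then had an unadjusted p under 0.05. Signals above the 75th percentile were lower in the knockout by a median log2 difference of -0.09 as deposited and of -0.0014 after quantile normalization, and some small differences of bright members change sign with that step.

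Fitm1, which encodes the FIT protein known best from skeletal muscle and heart, was the member with the widest separation between genotypes. Its probe set 1451488_at read 107 and 95.8 in wild type and 313 and 314 in the knockout. Both knockout arrays thus lay far above both wild type arrays, and they lay closer to each other than the wild type arrays did. The means were 101 ± 7.98 in wild type and 314 ± 0.415 in the knockout (SD, n = 2 arrays each). The log2 difference was 1.63 with a standard error of 0.10, or 3.09-fold higher in the knockout. This was the 16th highest difference of the 22519 kept probe sets, and 74 kept probe sets were at least 2-fold higher in the knockout. Across the other scalings and with each array left out the log2 difference stayed between 1.55 and 1.71. In these bulk samples a change in the number of cells of a type and a change in RNA per cell cannot be told apart, here and for all members below.

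Fitm2, the more widely expressed FIT protein, did not share the size of that difference. Probe set 1454935_at read 116 and 122 in wild type and 146 and 122 in the knockout. The lower knockout value, 122.3, exceeded the higher wild type value, 121.6, by less than the spread within either genotype. The log2 difference was 0.17 with a standard error of 0.12. It ranged from 0.04 without knockout replicate 1 to 0.29 without knockout replicate 2.

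**Figure D1:**
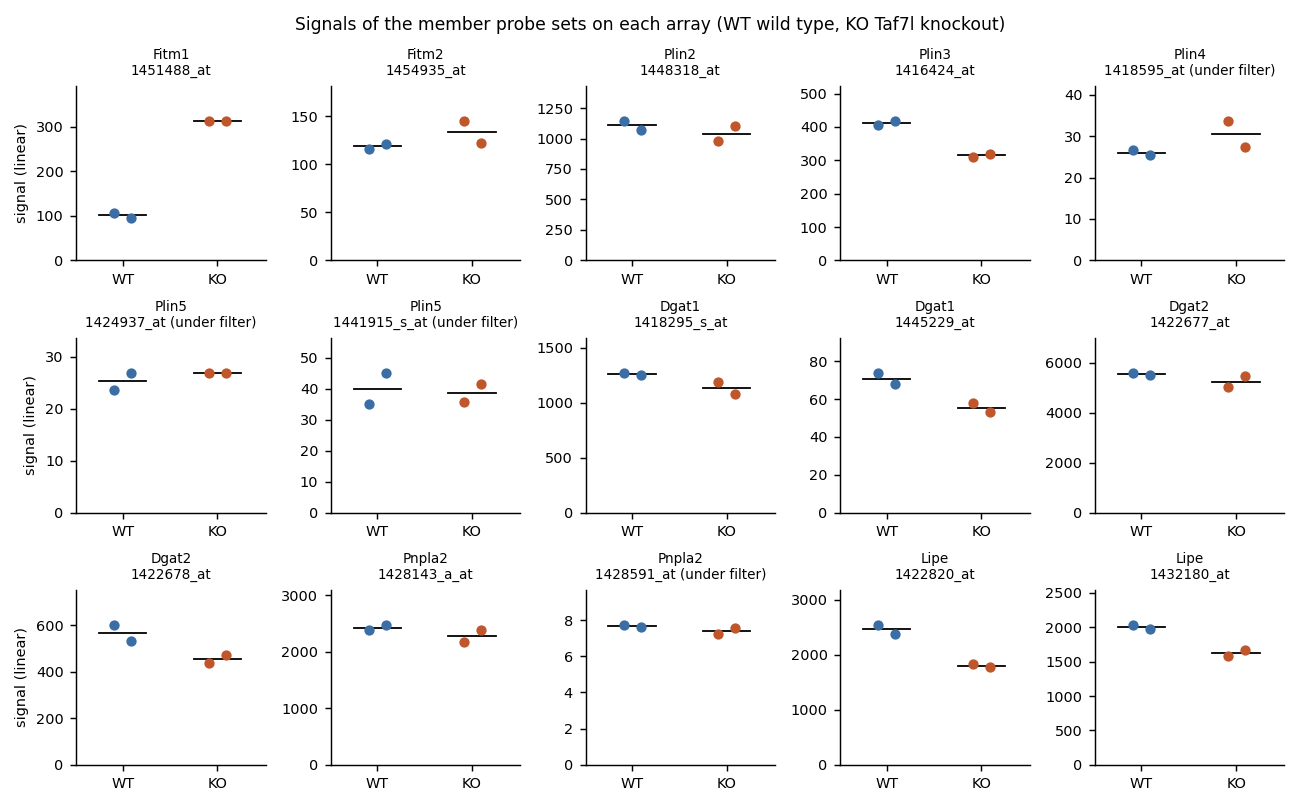
Signal (linear, each panel with its own axis from 0) of the 15 member probe sets, with 1 point per array and a line at each genotype mean, for wild type (WT) and Taf7l knockout (KO). Fitm1 stands at 95.8 to 107 in wild type against 313 to 314 in the knockout, Plin3 and Lipe are lower in the knockout, and Plin4 and Plin5 are dim in all samples.

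Among the droplet coat proteins, Plin3 was lower in the knockout and the other perilipins showed no separation of that kind. Plin3, a perilipin that moves from the cytosol onto young droplets, read 406 and 419 in wild type and 311 and 318 in the knockout. The genotypes did not overlap, and the gap between them was wider than the range within either. The means were 413 ± 9.14 and 315 ± 5.004 (SD, n = 2 each), a log2 difference of -0.39 with a standard error of 0.082, or 1.31-fold lower in the knockout. It lay between -0.41 and -0.34 under every scaling and with each array left out.

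Plin2, the perilipin that covers droplets in most cell types outside fat, overlapped between genotypes. Its probe set 1448318_at read 1147 and 1067 in wild type and 981 and 1100 in the knockout. The log2 difference was -0.09 (SE 0.09) as deposited and 0.01 after quantile normalization, so it has no settled direction.

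Plin4 and Plin5, known as coat proteins of fat and of oxidative tissues, were dim on all arrays. The Plin4 probe set read 26.7 and 25.4 in wild type and 33.7 and 27.4 in the knockout. Its knockout arrays differed from each other by 0.30 on the log2 scale, more than the difference of 0.22 between the genotypes. Plin5 probe set 1441915_s_at read 34.9 and 45.1 in wild type and 35.8 and 41.5 in the knockout. The wild type arrays differed there by 0.37, the widest range within a genotype of any member at its brightest probe set, and the difference between genotypes ran from -0.22 to 0.15 as arrays were left out. The other Plin5 probe set, 1424937_at, read 23.6 on wild type replicate 1 and exactly 26.9 on all other arrays. Exact values shared between arrays occur in 3961 of the 45037 mouse probe sets, and how they arose was not settled.

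**Figure D2:**
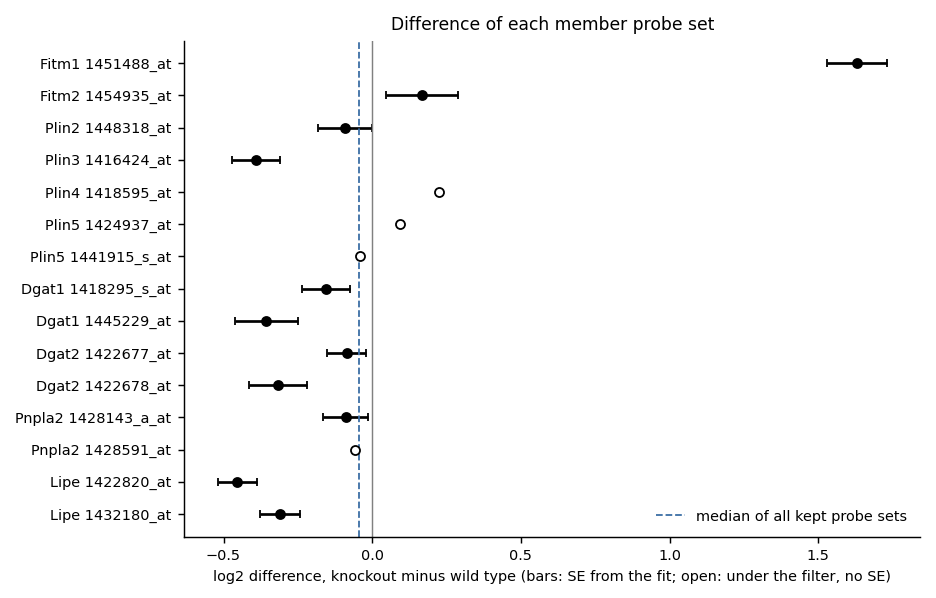
Log2 difference in signal (knockout minus wild type) of each member probe set, with bars for the standard error from the limma fit over 2 arrays per genotype; open circles are probe sets under the signal filter, which have no standard error. Fitm1 lies at 1.63 while the other members lie between -0.45 and 0.22, around the median of all kept probe sets (dashed line, -0.05).

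Dgat1 and Dgat2 had signals below wild type on both knockout arrays at each of their probe sets as deposited, with the larger differences at the dimmer probe sets. The 2 genes encode unrelated enzymes that catalyse the same last step, the transfer of a fatty acid to diacylglycerol. Dgat1 read 1271 and 1249 in wild type and 1192 and 1074 in the knockout at 1418295_s_at, a log2 difference of -0.16 (SE 0.08). At 1445229_at it read 73.9 and 67.9 against 57.7 and 53.0, a log2 difference of -0.36 (SE 0.11). Dgat2 read 5595 and 5528 in wild type and 5018 and 5472 in the knockout at 1422677_at, a log2 difference of -0.09 (SE 0.065). Its knockout arrays were further apart there than the nearer of them was from wild type. At 1422678_at Dgat2 read 601 and 533 against 439 and 471, a log2 difference of -0.32 (SE 0.098). After quantile normalization the brighter probe sets moved to -0.04 for Dgat1 and 0.03 for Dgat2, so the direction at the brighter Dgat2 probe set depends on the scaling.

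Of the lipases, Lipe was lower in the knockout at both of its probe sets and Pnpla2 overlapped between genotypes. Lipe encodes hormone-sensitive lipase, which cleaves diacylglycerol and sterol esters. Its probe set 1422820_at read 2539 and 2385 in wild type and 1824 and 1771 in the knockout, and 1432180_at read 2032 and 1981 against 1576 and 1662. At each probe set both knockout arrays lay below both wild type arrays, by more than the range within either genotype. The log2 differences were -0.45 (SE 0.067), or 1.37-fold lower, and -0.31 (SE 0.066), or 1.24-fold lower. Quantile normalization brought them to -0.33 and -0.20, which leaves the direction and takes away part of the size.

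Pnpla2 encodes adipose triglyceride lipase, the enzyme of the step before Lipe. It read 2381 and 2472 in wild type and 2173 and 2394 in the knockout at 1428143_a_at. The higher knockout array lay between the wild type arrays, and the log2 difference of -0.09 (SE 0.075) became 0.03 after quantile normalization. The second Pnpla2 probe set read only 7.23 to 7.73 on the 4 arrays.

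By count, 9 of the 11 kept member probe sets did not overlap between genotypes, 2 of them higher and 7 lower in the knockout. Over all kept probe sets 55.0% did not overlap. The median log2 difference was -0.16 over the 11 and -0.05 over all kept probe sets, of which 39.99% were higher in the knockout. The limma fit placed 1 of the 11 past the threshold, Fitm1. With each gene at its brightest kept probe set, 2 of 8 members were higher and 6 lower, and 1 of the 8 was called higher and 0 lower, against 0.539% of 12241 genes called higher and 1.20% called lower. Because the members were chosen on this contrast, nothing is read from these counts. The count of member probe sets past the threshold was 2 after centring each array on its median, when Lipe 1422820_at joined Fitm1. Of all 22519 probe sets 646 were called there. The member count was 3 with a filter at the 75th percentile of signal, 318. Plin3 and both Lipe probe sets then passed, and Fitm1 lay below the filter. Under that filter 2375 of all 11260 probe sets were called, 18.2% of them higher in the knockout. Fits with an array left out called no probe set of any gene, so they tell nothing about the members.

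**Figure D3:**
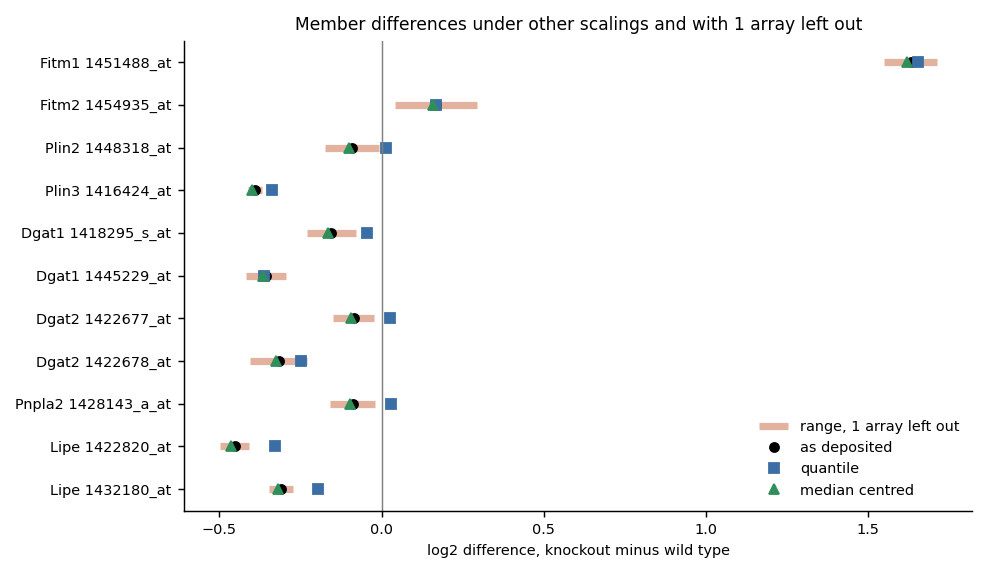
Log2 difference (knockout minus wild type) of the 11 kept member probe sets as deposited, after quantile normalization and after centring on the array median, with a bar for the range when 1 of the 4 arrays is left out. Fitm1 stays between 1.55 and 1.71 and Plin3 and Lipe stay below 0, while Plin2, the brighter Dgat2 probe set and Pnpla2 cross 0 after quantile normalization.

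Beyond the members, 38 other genes of the droplet pathway were examined, of which 34 had a probe set of their own and 29 passed the filter. At their brightest kept probe set 15 were higher and 14 lower in the knockout, with a median log2 difference of 0.00, against -0.05 over all genes. Called were 1 higher and 0 lower, with the background shares given above. The list for synthesis had 12 genes kept, 6 higher and 6 lower, with a median of -0.01. The list for droplet formation and coat had 11 kept, 6 higher and 5 lower, with a median of 0.09. The lipolysis list had 6 kept, 3 higher and 3 lower. None of the 3 medians kept its sign over the alternatives, which gave -0.05 to 0.07 for synthesis, -0.05 to 0.15 for formation and coat, and -0.08 to 0.13 for lipolysis.

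The called gene was Lpin3, a lipin that turns phosphatidate into diacylglycerol, the substrate of the Dgat enzymes. Lpin3 read 124 and 131 in wild type and 208 and 225 in the knockout, so both knockout arrays were higher. The log2 difference was 0.76 (SE 0.098), with an adjusted p of 0.048 in limma. The call was lost after quantile normalization (limma adjusted p = 0.054) and with a constant variance prior. It was also lost with no filter, where no probe set of any gene was called. With each array left out the log2 difference stayed between 0.71 and 0.82. Lpin1, the lipin known best from fat, differed the other way without passing the test. It read 2807 and 2748 in wild type and 1856 and 2140 in the knockout, a log2 difference of -0.48 (limma adjusted p = 0.062).

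Hilpda encodes a small droplet protein that inhibits adipose triglyceride lipase. It read 523 and 520 in wild type and 375 and 359 in the knockout, a log2 difference of -0.51 (limma adjusted p = 0.053). That p was 0.048 after median centring, and both Hilpda and Lpin1 passed with the filter at the 75th percentile and with 1 probe set per gene. Aup1, a droplet protein of the ubiquitin pathway, passed under the same 2 settings, with a log2 difference of -0.44. Acsl3, a fatty acid activating enzyme of growing droplets, passed under the 75th percentile filter with -0.50 and -0.51 at its 2 probe sets there. The 4 genes called under that filter were all lower in the knockout, and Aup1 and Acsl3 are named here because of that count. Of all 11260 probe sets under that filter 2375 were called, 18.2% of them higher in the knockout. Lpin3, at a mean signal of 172, lay below that filter. G0s2, another inhibitor of the same lipase, read 75.05 and 96.3 against 83.2 and 82.5. Abhd5, its activator, read 7160 and 8232 against 7872 and 7642. Mgll, which cleaves the last fatty acid from glycerol, read 1404 and 1681 against 1630 and 1557. At these probe sets the genotypes overlapped in all 3 genes, and limma's adjusted p was 0.91, 0.94 and 0.80. A second kept probe set of Abhd5, 1417565_at, did not overlap, at 349 and 389 against 303 and 307. Its log2 difference was -0.27 (limma adjusted p = 0.16).

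Bscl2 encodes seipin, which sits at the sites where droplets bud. It read 8075 and 7680 in wild type and 8496 and 8237 in the knockout, a log2 difference of 0.09 (limma adjusted p = 0.40). Its other probe set went the other way, at 2899 and 2771 against 2396 and 2607. The log2 difference there was -0.18 (limma adjusted p = 0.20). Agpat2, which makes phosphatidate, read 2946 and 2973 against 3338 and 3171, a log2 difference of 0.14 (limma adjusted p = 0.25). Gpat2, an acyltransferase abundant in testis, read 1157 and 1125 against 1166 and 1202, a log2 difference of 0.05 (limma adjusted p = 0.68). None of these 3 passed the test. Cidec, a droplet fusion protein of fat, was under the filter at 25.2 to 31.7. Plin1, Acsl1 and Soat1 had no probe set annotated to them alone and were not analysed here.

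Several members are also expressed in fat, so markers of adipocytes were read array by array. Car3 read 124 and 1469 in wild type and 275 and 535 in the knockout. Fabp4, a fatty acid binding protein, read 170 and 1455 against 264.5 and 552, and lipoprotein lipase, Lpl, 99.8 and 485.5 against 113 and 198. Car3, Fabp4 and Lpl were thus highest on wild type replicate 2 and next on knockout replicate 2, an order that followed arrays and not genotype. Adipoq, Aqp7 and Retn were also highest on wild type replicate 2, but both their knockout values lay below both wild type values. Retn read 97.1 and 145 against 93.8 and 95.1. Of 15 adipocyte markers 12 had a probe set and 8 were kept, with 2 higher, 6 lower and 0 called. Of the 8, 6 were highest on wild type replicate 2. Signals were also summed over all 12, each at its brightest probe set. The sums were 6684 and 10327 in wild type and 6107 and 7713 in the knockout. Aqp7 alone gave 4734 and 5033 of them in wild type and 4054 and 4643 in the knockout. Adipoq, the fat hormone adiponectin, read 450 and 558 against 293 and 368, a log2 difference of -0.61. Its limma adjusted p was 0.10, and 0.049 with the replicate block. Leptin, Lep, stayed at 5.15 to 5.34. The median of the 8 was -0.25 and ran from -0.69 without wild type replicate 1 to 0.19 without wild type replicate 2.

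Fitm1 had its lowest value, 95.8, on the array where most kept fat markers were highest, and read 313 and 314 on knockout arrays where Car3 differed from 275 to 535. Without wild type replicate 2 the Lipe and Plin3 differences stayed below 0, within the ranges given above. Plin2, Lipe 1422820_at and Dgat2 1422678_at were higher on wild type replicate 1 than on replicate 2. Plin5 and Pnpla2, each at its brighter probe set, were highest on wild type replicate 2 and next on knockout replicate 2, as Car3, Fabp4 and Lpl were. Plin5 was under the filter. The part of fat tissue in the values of Plin5, Pnpla2 and the other members was not tested.

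Fitm1 is known from skeletal muscle. Most markers of that tissue were under the filter, and the kept ones that separated the genotypes went both ways. Of 17 muscle markers all had a probe set and 10 were under the filter. The 7 that were kept had 4 higher, 3 lower and 0 called. Over all 17, summed signals were 731 and 670 in wild type and 698 and 728 in the knockout. Acta1, the skeletal muscle actin, read 7.55 to 8.52 on the 4 arrays. Creatine kinase, Ckm, read 95.7 and 75.2 against 83.4 and 67.7, and the fast light chain Mylpf 71.3 and 79.0 against 60.9 and 70.4. Ckm overlapped between genotypes and Mylpf was lower on both knockout arrays, the opposite of Fitm1. Of the other kept markers, Actn3 and Ttn were higher on both knockout arrays, by log2 differences of 0.18 and 0.10. Actn3 read 97.4 and 118 against 125 and 119. Casq1, the brightest muscle marker, overlapped at 152 and 104 against 135 and 153. These levels are near or above those of Fitm1 in wild type, 107 and 95.8.

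**Figure D4:**
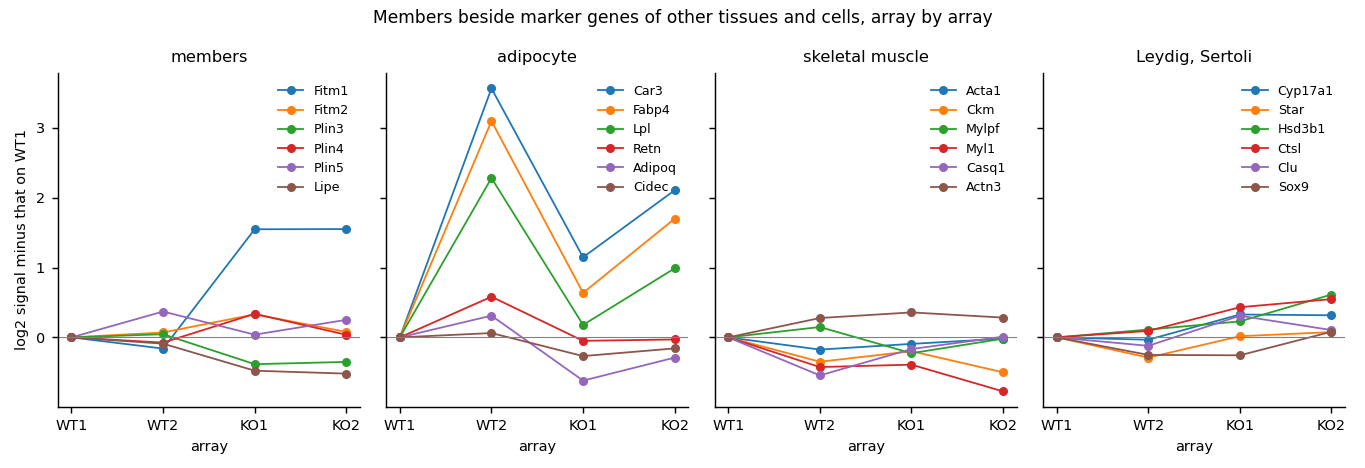
Log2 signal on each array minus that on wild type replicate 1 (WT1), for 6 members, 6 adipocyte markers, 6 skeletal muscle markers and 6 markers of Leydig and Sertoli cells, each at its brightest probe set. Fitm1 steps up between the genotypes, whereas Car3, Fabp4 and Lpl peak on wild type replicate 2 and the muscle markers show no step of that size.

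Markers of the somatic cells that hold droplets in testis were higher in the knockout in most cases, though several overlapped between genotypes. Over all genes at their brightest kept probe set, 4813 of 12241 were higher. All 5 kept Leydig cell markers were higher, with a median log2 difference of 0.34 and summed signals of 16641 and 16431 in wild type against 20460 and 20906 in the knockout. The called gene among them was Cyp17a1, an enzyme of androgen synthesis, at 12131 and 11852 against 15226 and 15105 (log2 difference 0.34, limma adjusted p = 0.0496). With each array left out the Cyp17a1 difference stayed between 0.32 and 0.36, and the median of the list was 0.17 without knockout replicate 2. Star, which brings cholesterol into mitochondria, read 1278 and 1046 against 1293 and 1347 and was not called. The Leydig marker Hsd17b3 overlapped, at 561 and 626 against 568 and 670. Of 9 kept Sertoli markers 7 were higher and 0 were called, with a median of 0.17, and the Sertoli factor Sox9 overlapped at 145 and 122 against 121 and 153. Wt1, Amhr2 and Cldn11 overlapped as well. Inhbb was lower on both knockout arrays, at 339 and 349 against 278 and 304. The Sertoli median was 0.29 after quantile normalization, 0.07 with the mean of the probe sets of each gene, 0.08 without wild type replicate 2 and 0.11 when knockout replicate 2 was left out. All 8 kept macrophage markers were higher by the mean of log2 signals, with a median of 0.17 and 0 called. Among them Csf1r, C1qc and Lyz2 overlapped between genotypes.

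Of 10 germ cell markers 8 were lower and 0 were called, with a median of -0.10, or -0.06 after quantile normalization. Prm1, the protamine of late spermatids, read 84759 and 94761 in wild type and 94362 and 91948 in the knockout, so it overlapped. Hspa2, a heat shock protein of meiotic cells named here after its values were seen, read 18156 and 17711 against 13748 and 14418, a log2 difference of -0.35 (limma adjusted p = 0.051). Tnp1, Tnp2 and Acrv1, all of spermatids, were also named after their values were seen. They were lower on both knockout arrays, by log2 differences of -0.17, -0.14 and -0.30. A second Tnp1 probe set overlapped, at -0.05. The genotypes also overlapped for Prm2, Ldhc, Sycp3, Ddx4 and Zbtb16, at -0.13, -0.02, 0.02, -0.003 and -0.06. Over all kept probe sets 55.0% did not overlap, in either direction. Of 4 kept epididymal markers 2 were higher and 2 lower, with a median of -0.61, which was -0.96 without wild type replicate 1 and -0.23 without wild type replicate 2. The 2 lower genes were highest on wild type replicate 2, Spink8 at 17.3 and 150 against 10.1 and 12.7 and Cuzd1 at 192 and 436 against 117 and 129. The Fitm1 difference of 1.63 exceeds the median of each of these lists, but it is that of 1 gene chosen with this contrast known. Single markers lay far from such medians, as Spink8 at -2.17 and the macrophage marker H2-Aa at 0.70. The differences of Plin3 and Lipe, -0.39, -0.45 and -0.31, lie below the germ cell median and above the epididymal one, and those of Hspa2 and Acrv1 come near them in size. The part of cell composition in the members' differences was not tested. The ratio of 3' to 5' actin signals, a check on RNA quality, was 2.09 and 1.999 in wild type and 2.42 and 2.18 in the knockout. The same ratio for Gapdh went the other way, at 1.04 and 0.99 against 0.93 and 0.94. The part of RNA quality was not tested.

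The genes beside Fitm1 on chromosome 14, in RefSeq order, did not share the size of its difference. Dcaf11, directly upstream, read 480 and 540 in wild type and 652 and 635 in the knockout at one probe set, a log2 difference of 0.34 (limma adjusted p = 0.11). Its other probe set differed by 0.26 (limma adjusted p = 0.19). Psme1, directly downstream, read 243 and 289 against 338 and 345, a log2 difference of 0.37 (limma adjusted p = 0.13). These flanking genes were higher on both knockout arrays without passing the test. Cpne6, Pck2 and Rnf31, further out, differed by 0.23, -0.11 and -0.04, while Nrl and Emc9 were under the filter.

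The 5 genes whose pattern lay nearest to that of Fitm1 were found by the Euclidean distance of log2 signals over the 4 arrays, each centred on its own mean, among 19999 kept probe sets with 1 gene name. They were Slc12a7 at a distance of 0.157, Rab6b at 0.164, Ext1 at 0.261, B830017H08Rik at 0.269 and Bpifb3 at 0.278. Slc12a7, a potassium chloride cotransporter, read 73.9 and 69.6 in wild type and 250 and 240 in the knockout. Rab6b, a small GTPase of Golgi traffic, read 178 and 156 against 476 and 452. All 5 were higher in the knockout, by log2 differences of 1.37 to 1.77, which the measure of likeness itself entails. With 4 arrays such a likeness holds little beyond the step between genotypes and the order within each. For Plin5, the member with the widest range within a genotype, the nearest were Tagln3 at 0.0095, Tmco5b at 0.029, Zfp652 at 0.030, Gcc1 at 0.031 and Arsk at 0.035.

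**Figure D5:**
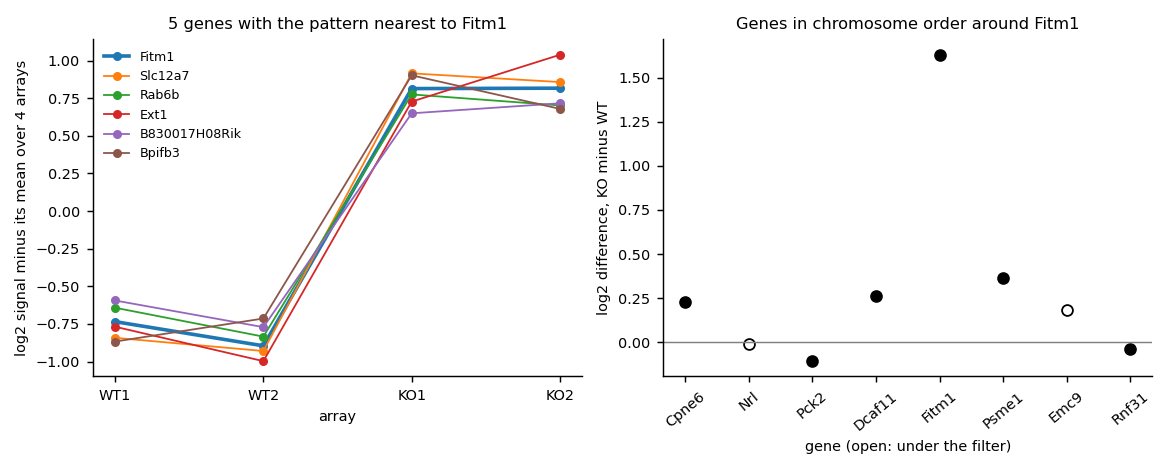
Left, log2 signal minus its mean over the 4 arrays for Fitm1 (thick line) and the 5 genes with the nearest pattern. Right, log2 difference (knockout minus wild type) at the brightest probe set of the genes around Fitm1 in chromosome order, open circles being under the filter, where Fitm1 lies at 1.63 and its neighbours between -0.11 and 0.37.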

How the data were processed

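The deposited table holds linear intensities (probe set signals) of 4 Affymetrix arrays for 45037 mouse probe sets and 64 controls. The submitters' processing notes name MAS5, with no version, and the sources used here give no scaling target. Median signals ran from 45.2 to 45.7 and trimmed means (2% cut at each end) from 465 to 509, and no further scaling was applied. The platform annotation gave 34945 mouse probe sets 1 gene symbol, 932 several and 9160 none, and 34754 were matched to RefSeq by gene ID. Probe sets with a mean signal under the median of 45.8 were left out of the fit, and log2 signals of the other 22519 were fitted with limma 3.58.1 in R 4.3.3 (eBayes with a variance trend, two-sided, Benjamini-Hochberg over all kept probe sets, 2 residual and 3.17 prior degrees of freedom). Fold changes are back-transformed log2 differences. An exact permutation test of 2 against 2 arrays cannot go below p = 0.333, so none was used. The number of arrays limits the precision. The scripts were tested on simulated data.

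The members and lists were chosen with earlier results of these data known. Named are all member probe sets, Taf7l, a set of pathway and marker genes fixed by name, called genes of the pathway lists, the genes around Fitm1, and the 5 nearest patterns to Fitm1 and to the member with the widest range within a genotype. A few further list genes were named after their values were seen. Genes other than the members are given at their brightest kept probe set, unless another is stated. The alternatives tried were quantile normalization, centring on the array median, adding 5.52 before log2, other filters, no variance trend, the replicate number as a block, 1 probe set per gene, the mean of the probe sets of a gene for the lists, and each array left out. Over all kept probe sets, samples with the same replicate number did not deviate together (correlation 0.03), so the main fit used no pairing. Whether the numbers pair the samples is not settled by this.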

Additional observations from a re-analysis of the deposited data

How the results depend on the processing

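The number of probe sets called between genotypes was 312 as reported, 148 after quantile normalization, 646 after median centring, 2375 with the filter at the 75th percentile, 36 without a variance trend, 806 with 1 probe set per gene and 0 without a filter, where 6192 had an unadjusted p under 0.05 in limma. The share of calls that were higher in the knockout was 32.1% as reported, 61.5% after quantile normalization and 22.8% after median centring. With the replicate block the count was 541, although the replicate numbers gave no sign of pairing, with 1 member called as before. Of the member probe sets, 1 was called as reported, 2 after median centring and with 1 probe set per gene, 3 with the filter at the 75th percentile and 0 without a filter. The members were chosen on this contrast, so their counts are a description beside the counts over all probe sets, and nothing is read from them. Of the other pathway genes, 1 was called as reported, 2 after median centring, 4 with the filter at the 75th percentile and with 1 probe set per gene, and 0 after quantile normalization, without a filter and without a variance trend. Leaving out 1 array gave 0 calls in each case for all 3 counts, with the lone array of a genotype assumed to vary like the other genotype. Because no probe set was called with an array left out, these fits say nothing about the stability of a call. Quantile normalization moved 7 of the 15 member differences by more than the spread between replicates, and list medians moved by more than that spread 30 times against 78 times by less. Cyp17a1 lost its call with the replicate block (limma adjusted p = 0.052). The cause of these shifts was not tested. With 2 arrays per genotype and no detection calls used here, dim members such as Plin4 and Plin5 give no measure of a difference.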
